A study of Rattus norvegicus with 10 samples.

Results

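B cell markers, 9 genes that label B lymphocytes, were followed in the livers of irradiated rats: Cd22, Cd79a, Cd79b, Ms4a1, Blk, Pax5, Cd37, Blnk and Cr2. They were given as a list, and each was looked for among the probes of the array through the accession that the scanner files print beside a probe. A probe was found for 6 of the 9, namely Cd79b, Cd22, Cr2, Cd37, Blk and Blnk, which together had 7 probes among the 41012 of the array and stood for 6 of its 13438 genes with a symbol. No probe was matched to Cd79a, Ms4a1 or Pax5, and these 3 genes were not analysed here.

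The study asked which liver genes responded to total-body irradiation (TBI) and which of those responses were altered by MASM, a derivative of the plant alkaloid matrine. All rats were male Wistar rats, and the control group of 3 rats was neither irradiated nor given MASM. The TBI group of 3 rats was irradiated from a cobalt gamma source with 6.5 Gy at 2 Gy per min according to the labels, while the paper states 6 Gy. The MASM + TBI group of 4 rats received the same dose after MASM by the intragastric route, 30 mg/kg a day on 3 consecutive days. Liver RNA was taken 24 h after irradiation, and no array from rats given MASM without irradiation was analysed here, so an effect of MASM alone cannot be told apart from its effect on irradiated rats. The labels give no age.

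B lymphocytes recognise antigen through the B cell receptor, a membrane immunoglobulin held together with the signalling chains Cd79a and Cd79b. Once antigen binds, Src-family kinases such as Blk phosphorylate these chains, the adaptor Blnk links the kinases to calcium signalling, Cr2 and its partners lower the threshold, and Cd22 restrains the signal. Resting B cells are among the most radiosensitive cells of the body and die largely by apoptosis, and in the liver they are a minor population of the blood and sinusoids beside hepatocytes and Kupffer cells. The RNA came from whole liver, so fewer B cells and less RNA of a gene per B cell cannot be told apart in any value below.

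Each value is a log2 signal, the brightness of the probe of a gene after quantile normalization between the 10 arrays, 1 array per rat. Cd79b was described by 1 probe, Cd22 by the brighter of its 2. A probe was called well above background on an array where the scanner software marked it so, and the number of rats limits the precision. Differences were tested with limma over all 40945 probes that had a value on every array, with a Benjamini-Hochberg adjusted p under 0.05 and a fold change of at least 1.5 as the threshold for a call. The scanner software marked 57.2% to 59.9% of the non-control spots as well above background in control rats, 64.1% to 70.1% in TBI rats and 56.2% to 60.2% in MASM + TBI rats. Hepatocyte markers were bright in every rat, with a mean log2 signal over 10 genes from 15.73 to 16.28, whereas the B cell marker Cr2 did not rise clearly over background in any rat. Of the 6 markers measured, 4 were well above background on every control array, and 2, Cd22 and Cd37, on all 10 arrays. The 3 control arrays shared a slide with MASM + TBI rat 3, the 3 TBI arrays were on another slide that held no other array analysed here, and MASM + TBI rats 1, 2 and 4 were on the remaining one, so TBI and its slide cannot be told apart. A heat map of the study names the control and TBI arrays the other way round, which would turn the sign of TBI against control. In the arrays, Ccng1, a p53 target induced by radiation and chosen here as a check of the labels, had a log2 signal of 8.61 to 9.12 in the rats labelled control, 11.04 to 11.45 in those labelled TBI and 10.74 to 11.82 in those labelled MASM + TBI.

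The promoters of 5 of the 9 genes were in the RefSeq table used, on the assembly GRCr8: those of Cd22, Cd37, Blnk, Cd79a and Cr2. The 3 below belong to the markers whose signal lay above background on every control array, and are shown because the first carries no match and the others 1 match each to motifs bound by factors of the B lineage. Each runs 5′ to 3′ on the strand of the gene from 250 bases before to 50 bases after its start, and capitals mark a motif.

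Cd22, GRCr8 chr1:95259681-95259980, minus strand: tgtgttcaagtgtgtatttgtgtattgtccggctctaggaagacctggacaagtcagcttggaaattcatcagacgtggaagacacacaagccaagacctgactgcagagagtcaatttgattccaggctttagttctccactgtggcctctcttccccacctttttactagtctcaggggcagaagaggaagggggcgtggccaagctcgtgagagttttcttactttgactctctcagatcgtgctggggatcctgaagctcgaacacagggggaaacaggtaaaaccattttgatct

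Cd37, GRCr8 chr1:104860735-104861034, minus strand: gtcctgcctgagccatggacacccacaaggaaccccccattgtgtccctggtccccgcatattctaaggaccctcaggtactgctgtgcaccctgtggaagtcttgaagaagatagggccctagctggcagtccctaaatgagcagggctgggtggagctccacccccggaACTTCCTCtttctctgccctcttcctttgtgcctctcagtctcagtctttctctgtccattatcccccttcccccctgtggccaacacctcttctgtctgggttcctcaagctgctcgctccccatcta

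Blnk, GRCr8 chr1:249770484-249770783, minus strand: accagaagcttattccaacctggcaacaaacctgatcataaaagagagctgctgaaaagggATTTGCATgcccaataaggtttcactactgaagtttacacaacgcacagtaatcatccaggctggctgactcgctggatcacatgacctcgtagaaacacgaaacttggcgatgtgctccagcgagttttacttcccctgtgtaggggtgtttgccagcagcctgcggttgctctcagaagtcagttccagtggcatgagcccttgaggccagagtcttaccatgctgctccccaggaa

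The search covered 3 motifs on both strands of all 33469 promoters of the table. The octamer ATGCAAAT, bound by the POU factors Oct-1 and Oct-2, was present in 1.78% of them, and among the 5 B cell markers in Blnk, reading ATTTGCAT on the strand shown, with its first base 189 bases upstream of the start. GAGGAAGT, a site of the type bound by PU.1, was present in 2.42%, and among the markers in Cd37, reading ACTTCCTC with its first base 79 bases upstream. CCCNNGGGA, the letters of a site for EBF, was present in 5.91% of promoters and in none of the 5. The matches did not overlap one another, and they describe letters in these windows only.

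Cd79b, the signalling chain of the receptor, carried the clearest difference among the markers. In the control rats its log2 signal was 6.11, 4.83 and 4.63, and in the TBI rats 2.05, 2.19 and 2.62. In the MASM + TBI rats it was 2.08, 2.14, 2.51 and 1.99. Every irradiated rat, with or without MASM, lay below every control rat, and the control rats themselves were spread, with rat 1 the highest. The probe was well above background on 3 of 3 control arrays, on 0 of 3 TBI arrays and on 0 of 4 MASM + TBI arrays, so that only a bound can be given for the irradiated groups. Cd79b fell to at least 4.97-fold below control after TBI, with a fitted log2 difference of -2.90 ± 0.36 (SE) and an adjusted p of 0.00484. It was at least 2.55-fold lower in MASM + TBI rats than in control rats, with a fitted log2 difference of -3.01 ± 0.34 (SE) and an adjusted p of 0.00378. The bound compares the control mean with the dimmest signal still well above background on each irradiated array. In TBI rat 3, where Cd79b itself was brighter than that, its own signal was used. The dimmest signal was lower on TBI arrays (2.54 to 3.17) than on MASM + TBI arrays (3.68 to 4.09). The unequal bounds say nothing of a difference between the irradiated groups. Some probes brighter than the dimmest signal were not well above background, as Blnk in MASM + TBI rat 2 (3.98, dimmest signal 3.91). The bounds here and below therefore hold only for that cut-off. With both irradiated groups below background, no fold is given between them.

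Within 1 slide, MASM + TBI rat 3 could be set beside the control rats. Cd79b was not well above background on its array. With the dimmest log2 signal well above background there, 4.09, as the cut-off, Cd79b was at least 2.14-fold below the control mean of 5.19. With the slide as a fixed block this single rat carried the comparison, the fitted log2 difference was -2.68 and Cd79b was not called. With the slide as a random block, whose fitted correlation was negative (-0.133), limma gave -3.08 (adjusted p 0.00106) over all rats. Without control rat 1 the bounds were at least 3.62-fold lower after TBI (adjusted p 0.00216) and at least 1.85-fold lower after MASM + TBI (adjusted p 0.00146). The size of the Cd79b difference depended on how the intensities were made, since normexp on median pixel intensities with an offset of 50 gave -0.32 (adjusted p 0.0538) for TBI and -0.43 (adjusted p 0.0157) for MASM + TBI, both under the 1.5-fold threshold. An offset added to every intensity shrinks the log2 differences of dim probes most, and how far it did so for Cd79b was not tested. With the t-test of the methods, run in Welch's form, the adjusted p was 0.259 and 0.247.

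**Figure D1:**
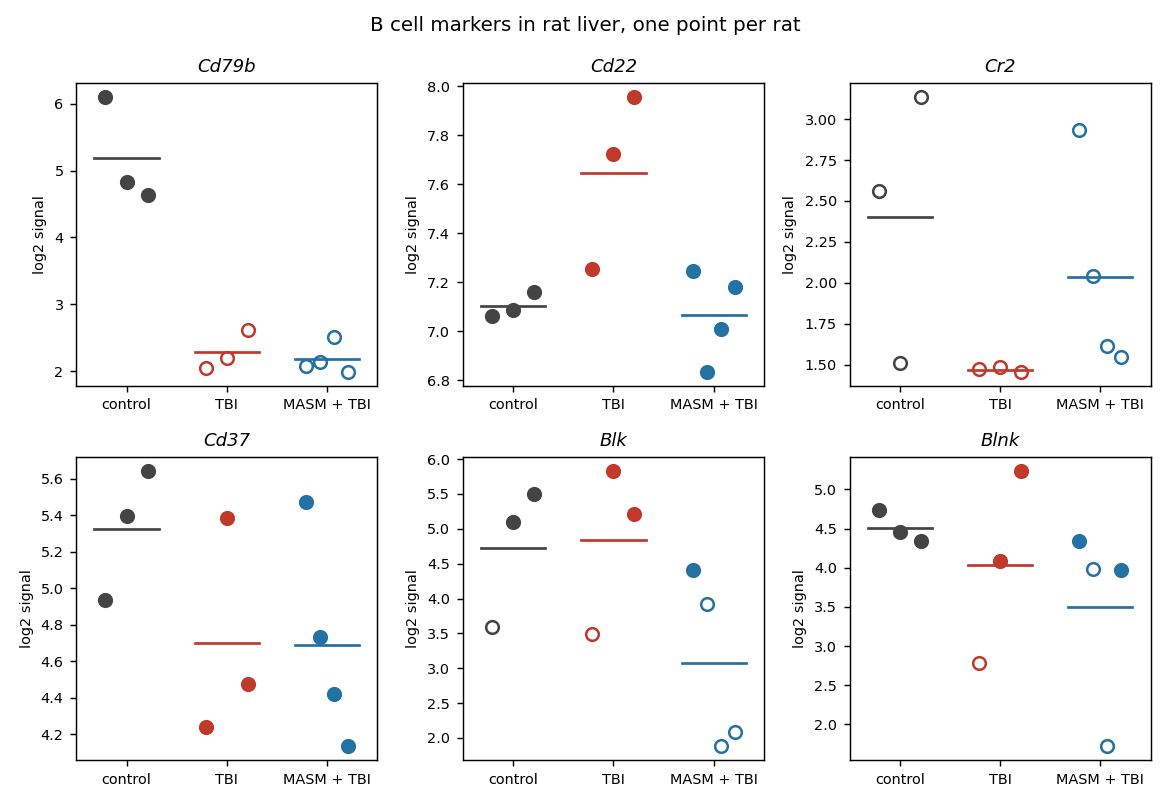
Log2 signal (vertical axes) of the 6 B cell markers with a probe in each rat of the control, TBI and MASM + TBI groups (horizontal axes). Filled points are arrays where the probe was well above background, open points arrays where it was not, and lines are group means. Cd79b is open in all 7 irradiated rats, and Cr2 in all 10 rats.

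Cd22, the inhibitory coreceptor of B cells, was not lower after TBI. In the control rats its log2 signal was 7.06, 7.09 and 7.16, in the TBI rats 7.26, 7.72 and 7.96, and in the MASM + TBI rats 7.25, 6.83, 7.01 and 7.18. Every TBI rat lay above every control rat, by a narrow margin for TBI rat 1, and above every MASM + TBI rat by a narrower one. The log2 difference between TBI and control was 0.54 ± 0.18 (SE, 95% interval 0.13 to 0.95) with an adjusted p of 0.117, which missed the threshold. MASM + TBI minus TBI was -0.58 ± 0.17 (SE, 95% interval -0.96 to -0.19) with an adjusted p of 0.141, and MASM + TBI minus control was -0.04 ± 0.17 (SE, 95% interval -0.42 to 0.35). Without TBI rat 1 the first difference was 0.74 (adjusted p 0.0315) and the second -0.77 (adjusted p 0.0306), both past the threshold. A second, dimmer probe of Cd22 measured 4.30, 5.13 and 5.18 in control rats, 4.92, 5.39 and 5.89 in TBI rats, and 5.17, 4.57, 5.05 and 4.90 in MASM + TBI rats. Its log2 difference between TBI and control was 0.53 ± 0.31 (SE), close in size to that of the brighter probe, but its groups overlapped and the adjusted p was 0.338.

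Cr2, the complement receptor of mature B cells, was well above background on none of the 10 arrays. Its log2 signal lay between 1.46 and 3.14, and no direction is drawn from it.

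Cd37, a tetraspanin of the B cell surface, was well above background in every rat. Its log2 signal was 4.94, 5.40 and 5.65 in control rats, 4.24, 5.39 and 4.48 in TBI rats, and 5.48, 4.73, 4.42 and 4.14 in MASM + TBI rats. The groups overlapped in every comparison, since TBI rat 2 and MASM + TBI rat 1 were within the control range. The log2 difference from control was -0.62 ± 0.40 (SE, 95% interval -1.54 to 0.29; adjusted p 0.390) for TBI and -0.63 ± 0.38 (SE, 95% interval -1.49 to 0.22; adjusted p 0.466) for MASM + TBI. Between MASM + TBI and TBI it was -0.01 ± 0.38 (SE), with a 95% interval from -0.87 to 0.85. The intervals of both comparisons with control hold no change as well as a fall of 1 log2 unit.

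Blk, the Src-family kinase of the receptor, varied widely within each group. Its log2 signal was 3.59, 5.10 and 5.49 in control rats, 3.49, 5.84 and 5.22 in TBI rats, and 4.41, 3.92, 1.88 and 2.09 in MASM + TBI rats. It was well above background on 2 of 3 control arrays, 2 of 3 TBI arrays and 1 of 4 MASM + TBI arrays, the 2 lowest values being those of MASM + TBI rats 3 and 4. The log2 difference was 0.12 ± 0.89 (SE, adjusted p 0.953) for TBI against control, -1.65 ± 0.83 (SE, adjusted p 0.370) for MASM + TBI against control and -1.77 ± 0.83 (SE, adjusted p 0.328) for MASM + TBI against TBI. None passed the test. Leaving out 1 rat moved them: TBI against control was 0.80 without TBI rat 1 and -0.45 without control rat 1. MASM + TBI against control was -2.22 without control rat 1 and -1.25 without MASM + TBI rat 3. MASM + TBI against TBI was -2.45 without TBI rat 1 and -1.28 without TBI rat 2. Values below background enter these differences as they stand. With each raised to the dimmest measurable signal of its array they were -0.02 for TBI against control, -0.84 for MASM + TBI against control and -0.82 for MASM + TBI against TBI. That signal was higher on MASM + TBI arrays (3.68 to 4.09) than on TBI arrays (2.54 to 3.17), so the last is not a like comparison.

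Blnk, the adaptor downstream of the receptor, was well above background in all control rats but not in all irradiated rats. Its log2 signal was 4.74, 4.45 and 4.35 in control rats, 2.78, 4.09 and 5.24 in TBI rats, and 4.34, 3.98, 1.72 and 3.97 in MASM + TBI rats. The control rats lay close together, the TBI rats on both sides of them, and the highest MASM + TBI rat at the lower edge of the control range, so that MASM + TBI and control did not overlap. Of the irradiated rats, TBI rats 2 and 3 and MASM + TBI rats 1 and 4 were well above background, and the values of the others enter the differences as they stand. The log2 difference from control was -0.48 ± 0.77 (SE, adjusted p 0.746) for TBI and -1.01 ± 0.72 (SE, adjusted p 0.558) for MASM + TBI. Between MASM + TBI and TBI it was -0.53 ± 0.72 (SE, adjusted p 0.753). Single rats set these values: TBI against control was 0.15 without TBI rat 1 and -1.08 without TBI rat 3, and MASM + TBI against control was -0.41 without MASM + TBI rat 3. Between the irradiated groups it was 0.06 without MASM + TBI rat 3, 0.07 without TBI rat 3 and -1.16 without TBI rat 1. With all rats kept, each value below the dimmest measurable signal of its array was also raised to that signal. The differences of Blnk were then -0.35 for TBI and -0.42 for MASM + TBI against control, and -0.07 between the irradiated groups, whose dimmest signals were unequal.

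**Figure D2:**
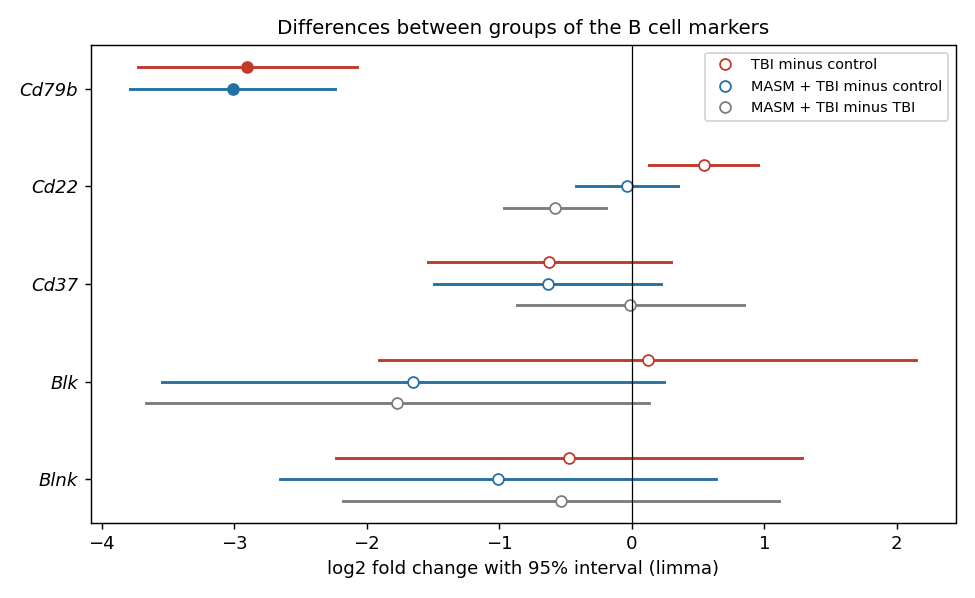
Log2 fold change between groups (horizontal axis) of 5 B cell markers, each in up to 3 comparisons, with 95% intervals from limma. Filled points passed an adjusted p of 0.05, which Cd79b did in both comparisons with control, where its irradiated signals were below background and its points are fitted values, not measured sizes; values of Blk and Blnk below background also enter as they stand. Cr2 and the comparison of Cd79b between the irradiated groups are left out because the signals were below background.

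Set against the array as a whole, the markers gave 1 call in each comparison with control. After TBI, 1 of 6 was lower at the adjusted threshold, where 2.49% of all probes were lower, and 0 of 6 were higher, where 2.01% were. At an unadjusted p under 0.05 with the same fold, the counts were again 1 lower and 0 higher, against 6.09% and 6.53% of all probes. In MASM + TBI rats 1 of 6 was lower than in control rats, where 1.43% of all probes were lower, and 0 were higher, where 0.926% were. At the unadjusted threshold these counts were also 1 lower and 0 higher, against 4.55% and 3.52% of all probes. The single gene was Cd79b both times, and both comparisons share the 3 control rats. Between MASM + TBI and TBI, limma called 0 of 6 lower and 0 higher at the adjusted threshold, where 0.625% of all probes were lower and 0.767% higher. At an unadjusted p under 0.05 with the fold it was again 0 of 6 lower and 0 higher, where 4.83% and 3.15% of all probes were. Only 4 of the 6 were measured between these groups, since Cd79b and Cr2 were below background on every array of both. The methods' t-test called 0 of 6 after adjustment in each comparison, but also no more than 10, 28 and 3 of all probes, and without adjustment it called 1, 1 and 0 of the 6.

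Counting only whether the rats of 2 groups overlapped, Cd79b was lower in every TBI rat than in every control rat, as were 19% of all probes, and Cd22 was higher, as were 11.3%. Cr2 is left out of these counts because it was at background in all groups. Cd79b and Blnk were lower in every MASM + TBI rat than in every control rat, as were 8.9% of all probes. For Blnk the nearest values were 4.344 and 4.345, and 2 of 4 MASM + TBI arrays were well above background. Cd22 was lower in every MASM + TBI rat than in every TBI rat, as were 5.88% of all probes. The median log2 difference over the 6 markers was -0.55 for TBI against control and -0.82 for MASM + TBI against control, beside -0.03 and 0.00 over all probes. Over the 5 markers well above background on some array of the groups compared, without Cr2, it was -0.48 and -1.01. Between MASM + TBI and TBI it was -0.56 over the 4 such markers, without Cr2 and Cd79b, beside 0.04 over all probes. Values below background entered these medians as they stand, and with each raised to the dimmest measurable signal of its array they were -0.35, -0.63 and -0.32. That signal was higher on MASM + TBI than on TBI arrays, so the last is not a like comparison. Single rats moved the medians over the 6 markers too: the first was -0.12 without TBI rat 1, and the second -0.48 without MASM + TBI rat 3.

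The TBI group was not uniform. TBI rat 1 had the lowest log2 signal of its group for 4 of the 4 markers measured in every group (Cd22, Cd37, Blk and Blnk), and 2 of the 6 were well above background in it, against 4 of the 6 in each of TBI rats 2 and 3. Over these 4 markers its mean log2 signal was 4.44, with 5.76 in TBI rat 2 and 5.72 in TBI rat 3. The control rats lay between 5.08 and 5.66 and the MASM + TBI rats between 3.76 and 5.37, with MASM + TBI rat 1 the highest of its group for 4 of the 4. Values below background enter these means as they stand. The genes of MHC class II, which B cells share with macrophages and dendritic cells, separated the same rats. Their summed linear signal over 10 genes was 4656 in TBI rat 1 against 79452 and 82837 in TBI rats 2 and 3, from 7465 to 11651 in control rats and from 3323 to 5136 in MASM + TBI rats. The part of these differences between the TBI rats in the values of the B cell markers was not tested.

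**Figure D3:**
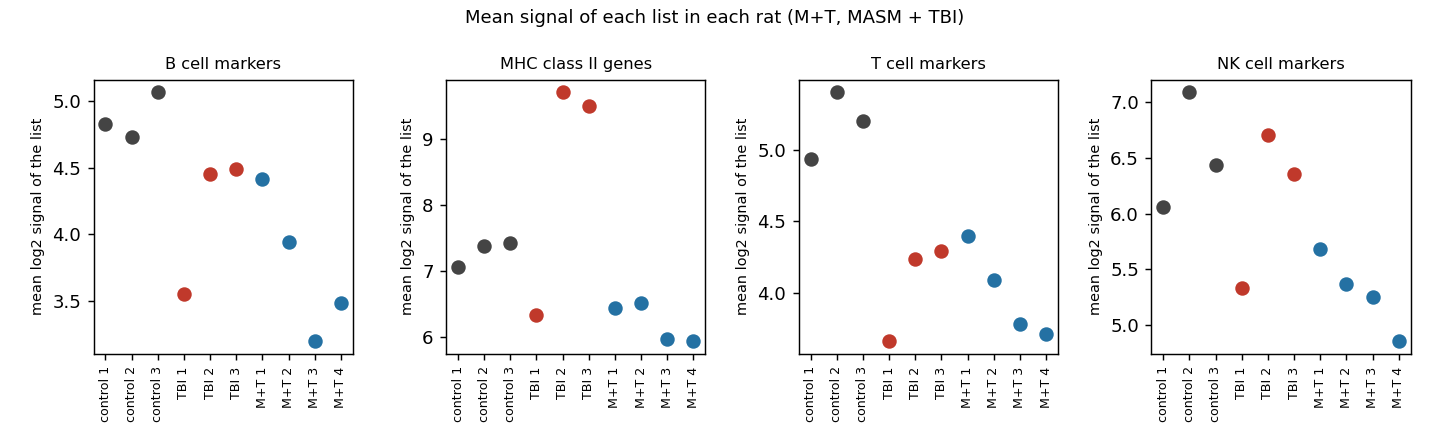
Mean log2 signal (vertical axes) over the genes of 4 lists in each of the 10 rats (horizontal axes; M+T, MASM + TBI). TBI rat 1 lies below TBI rats 2 and 3 in all 4 panels, and for MHC class II the gap is the widest, with means of 6.33, 9.70 and 9.50.

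Other genes of the B lineage were examined as a list of 25, of which 17 had a probe and 13 were well above background on some array. At the adjusted threshold 1 of the 17 fell after TBI and none rose (2.49% and 2.01% of all probes), and in MASM + TBI rats 3 of the 17 were lower than in control rats and none higher (1.43% and 0.926% of all probes). At an unadjusted p under 0.05 with the fold, 4 were lower and 1 higher after TBI (6.09% and 6.53% of all probes), and 5 were lower and none higher in MASM + TBI rats (4.55% and 3.52%). Among the 13 genes well above background on some array these counts were 3 lower and 1 higher after TBI, and 5 lower in MASM + TBI rats. The median log2 difference over the 17 was -0.29 for TBI and -0.67 for MASM + TBI against control, and 0.03 between the irradiated groups, where limma called 0 of 17 at the adjusted threshold and 2, Fcrla and Cd180, lower at an unadjusted p under 0.05 with the fold (4.83% of all probes). Of these, Cd180 was well above background on 0 of 4 MASM + TBI arrays and its difference there is not a measured one. The summed linear signal of the list was 876 to 957 in control rats, 611 to 830 in TBI rats and 399 to 718 in MASM + TBI rats.

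Fcmr, the Fc receptor for IgM carried by B cells and by some other lymphocytes, had the lowest log2 difference from control among the 17 in both irradiated groups. Its log2 signal was 7.69, 7.04 and 6.75 in control rats, 3.52, 3.51 and 3.32 in TBI rats, and 2.68, 3.82, 3.97 and 3.90 in MASM + TBI rats. No irradiated rat came near the control range, and the signal remained well above background on all 3 TBI arrays and on 1 of 4 MASM + TBI arrays. Fcmr fell by 3.71 on the log2 scale after TBI (SE 0.36, adjusted p 0.00176), and it was lower by a log2 difference of -3.57 ± 0.34 (SE, adjusted p 0.00189) in MASM + TBI rats. The values of the other 3 MASM + TBI arrays enter this difference as they stand. No difference is given for Fcmr between the irradiated groups, since the dimmest measurable signal of the MASM + TBI arrays exceeded the TBI mean.

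Fcrla, an Fc receptor-like protein found inside B cells, passed the test against control in MASM + TBI rats and missed it in TBI rats. Its log2 signal was 6.0, 6.33 and 6.32 in control rats, 3.95, 5.76 and 5.30 in TBI rats, and 3.92, 4.35, 3.53 and 3.82 in MASM + TBI rats. All irradiated rats were below all control rats, and TBI rat 1 stood with the MASM + TBI rats. Fcrla was well above background on 3 of 3 control, 3 of 3 TBI and 1 of 4 MASM + TBI arrays, and the values below background enter its differences as they stand. The log2 difference from control was -2.31 ± 0.39 (SE, adjusted p 0.0216) for MASM + TBI and -1.21 ± 0.42 (SE, adjusted p 0.131) for TBI. The difference between the irradiated groups, -1.10 ± 0.39 (SE), had an adjusted p of 0.206.

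Cd180, a Toll-like receptor homologue of B cells, was similar to Fcrla in which comparison passed. Its log2 signal was 3.81, 5.18 and 5.02 in control rats, 2.21, 3.87 and 4.67 in TBI rats, and 2.32, 1.95, 1.54 and 1.51 in MASM + TBI rats. It was well above background on 2 of 3 control, 2 of 3 TBI and 0 of 4 MASM + TBI arrays. Cd180 was at least 1.78-fold lower in MASM + TBI rats than in control rats (adjusted p 0.0405), while TBI against control gave -1.09 ± 0.61 (SE, adjusted p 0.326). Between the irradiated groups no difference is given, because the dimmest measurable signal of the MASM + TBI arrays lay above the TBI mean.

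Vpreb3, a chain that resembles part of the surrogate light chain of precursor B cells, was the gene higher after TBI at the unadjusted threshold, and it is named after its values were seen. The log2 signal of Vpreb3 was 6.16, 6.47 and 6.38 in control rats, 7.70, 7.77 and 7.18 in TBI rats, and 7.04, 7.42, 7.89 and 5.73 in MASM + TBI rats. Every TBI rat lay above every control rat, while MASM + TBI rat 4 lay below them. The log2 difference was 1.21 ± 0.48 (SE, adjusted p 0.173) for TBI against control and 0.68 ± 0.45 (SE, adjusted p 0.519) for MASM + TBI against control, neither past the threshold.

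**Figure D4:**
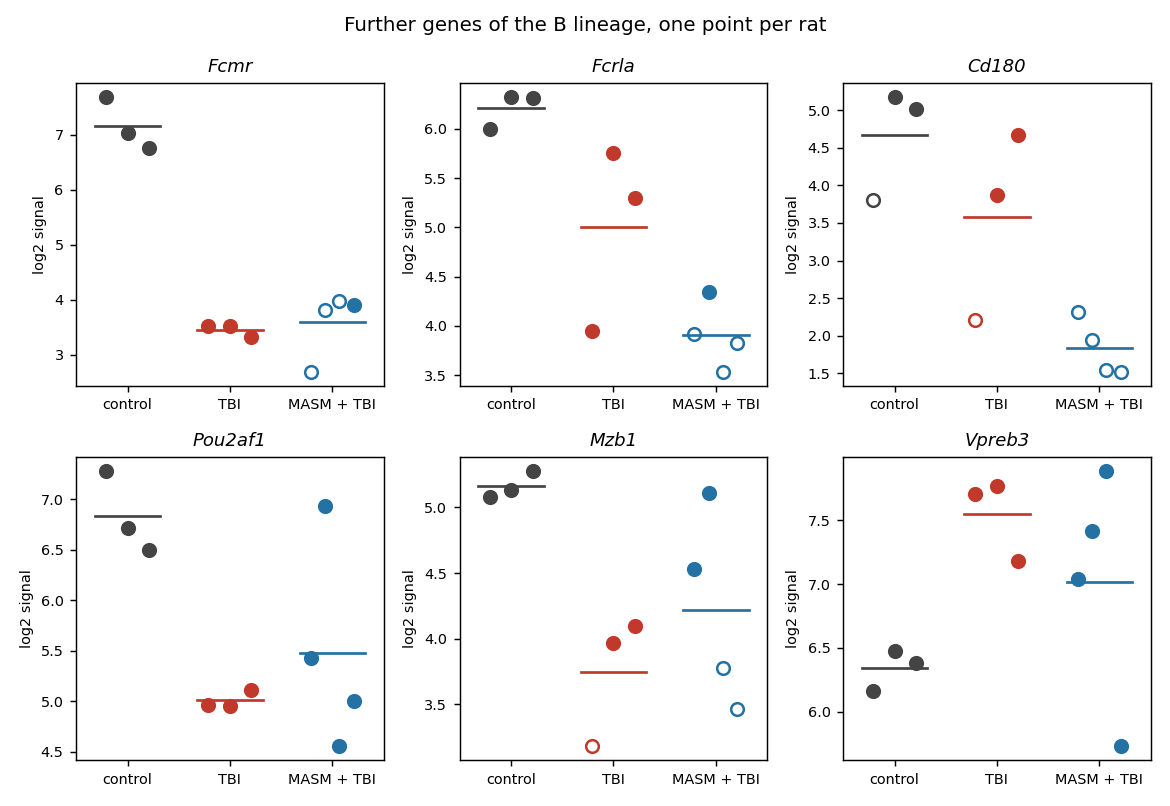
Log2 signal (vertical axes) of 6 further genes of the B lineage or of plasma cells in each rat by group (horizontal axes); filled points are well above background, open points are not, and lines are group means. Fcmr was lower in all 7 irradiated rats than in all control rats at an adjusted p under 0.05. Pou2af1, Mzb1 and Vpreb3 passed in no comparison and were added to the plot after their values were seen. Pou2af1 is drawn by its brighter probe, with a log2 difference from control of -1.82 for TBI and -1.35 for MASM + TBI. Its dimmer probe went the other way, with 1.07 and 1.18, and was well above background on 1 of 3 control arrays.

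The signalling genes that act with Blk and Blnk, most of which other blood and liver cells use too, gave no call. Of 16 such genes 12 had a probe, and limma called 0 in each comparison at the adjusted threshold. At an unadjusted p under 0.05 with the fold, 1 was higher and 0 lower after TBI (6.53% and 6.09% of all probes), 2 were lower in MASM + TBI rats than in control rats (4.55%), and 4 were lower in MASM + TBI rats than in TBI rats (4.83%). Their median log2 difference was 0.27, -0.35 and -0.50 in the same order. Of 12 immunoglobulin and plasma cell genes 6 had a probe, none of them an immunoglobulin chain, and limma called 0 in each comparison at the adjusted threshold. At an unadjusted p with the fold the plasma cell list had 1 lower gene after TBI, 2 lower in MASM + TBI rats against control and 0 between the irradiated groups, with medians of 0.00, -0.32 and -0.27.

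Markers of the other cells of a liver sample were counted the same way, as genes called lower at the adjusted threshold in TBI against control, in MASM + TBI against control and in MASM + TBI against TBI. No gene of these lists was called higher. The shares of all probes at this threshold were 2.49%, 1.43% and 0.625%. Of 14 T cell markers 6, 5 and 1 were lower, or 5, 4 and 1 of the 11 that were well above background on some array. Cd6, a T cell coreceptor, differed from control by -1.64 ± 0.23 (SE, adjusted p 0.00825) after TBI and by -1.56 ± 0.22 (SE, adjusted p 0.0100) after MASM + TBI, and Cd8b, a chain of the coreceptor of cytotoxic T cells, was the gene lower in MASM + TBI than in TBI rats, by -2.01 ± 0.28 (SE, adjusted p 0.0135). Cd8b had a difference of 0.78 (adjusted p 0.158) for TBI against control, which was not called. Cd2, an adhesion receptor of T and NK cells named after its values were seen, had a difference of the opposite sign between the irradiated groups that was not called (adjusted p 0.0736), with 0 of 3 TBI and 2 of 4 MASM + TBI arrays well above background. Others lower against control in both irradiated groups, named after their values were seen, included Cd3g and Lat. The summed linear signal of the T cell markers was 990 to 1417 in control, 567 to 809 in TBI and 403 to 640 in MASM + TBI rats. Of 10 NK cell markers 0, 1 and 0 were lower, the gene being Klrk1, named after its value was seen. The NK cell counts at an unadjusted p under 0.05 with the fold were 1, 7 and 3 lower, beside 6.09%, 4.55% and 4.83% of all probes, and their median log2 difference was -1.21 for MASM + TBI against control.

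Of 10 Kupffer cell and macrophage markers, 10 MHC class II genes, 4 erythroid genes, 7 endothelial markers and 10 hepatocyte markers, limma called 0 in each comparison at the adjusted threshold. At an unadjusted p under 0.05 with the fold, 8 of the 10 MHC class II genes and 7 of the 10 Kupffer cell markers were lower in MASM + TBI than in TBI rats, as were 4.83% of all probes. Of 9 neutrophil and monocyte markers 1 was lower in each comparison with control, Fcnb, and of 9 pan-leukocyte genes 2 were, among them Coro1a. The median log2 difference after TBI was -0.84 over the T cell markers, -0.44 over the NK cell markers, 0.28 over the Kupffer cell markers and 1.58 over the MHC class II genes. The MHC class II value rests on TBI rats 2 and 3, with mean log2 signals of 9.70 and 9.50. In TBI rat 1 the mean was 6.33, below every control rat (7.07 to 7.43). For MASM + TBI against control the MHC class II median was -1.31. The Kupffer cell mean was 11.36 in TBI rat 1, 12.23 and 11.94 in TBI rats 2 and 3, and 10.97 to 11.36 in MASM + TBI rats. A difference between the B cell and T cell lists was not tested.

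**Figure D5:**
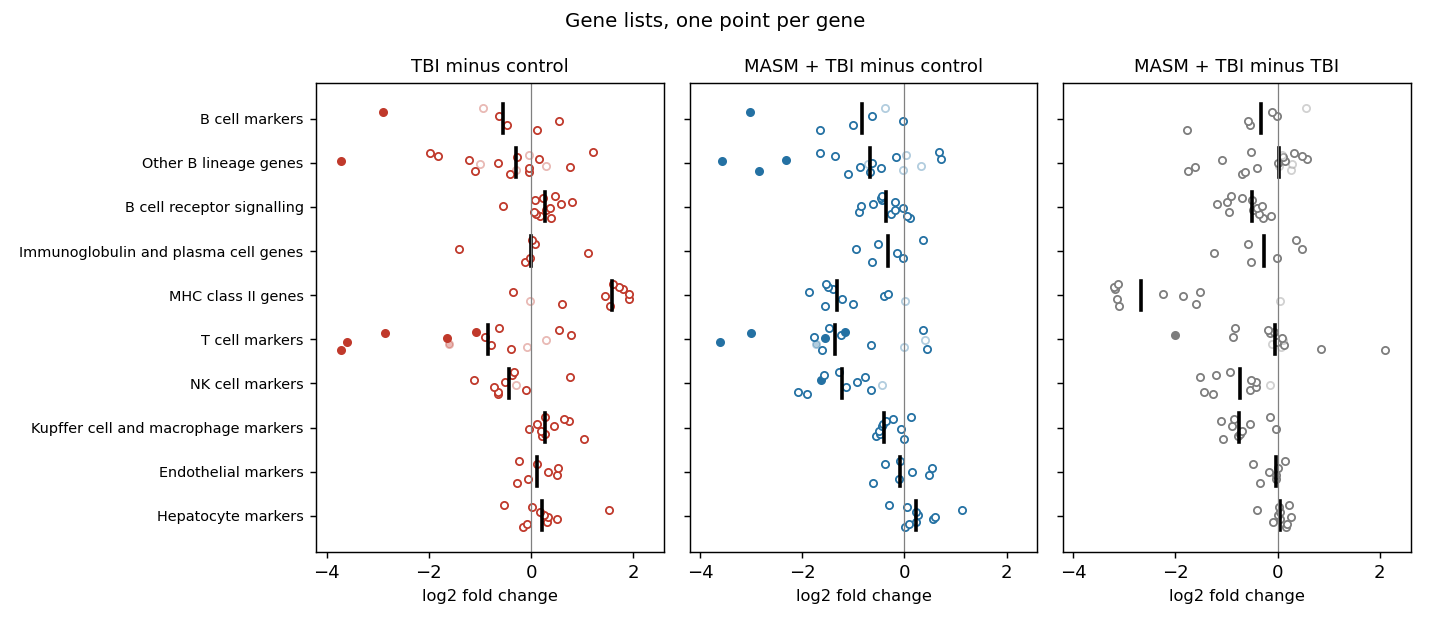
Log2 fold change (horizontal axes) of each gene of 10 lists (rows) in the 3 comparisons; filled points had an adjusted p under 0.05, pale points were well above background on no array, and black bars are list medians. Among the B cell markers the only filled point is Cd79b, in both comparisons with control, and 0 of the 6 is filled in MASM + TBI minus TBI.

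The genes whose pattern over the 10 rats was most like the markers were found by Pearson's r with the mean of the standardised log2 signal of Cd22, Cd79b, Cd37 and Blnk, among 8629 genes outside the lists. These 4 markers and the 8629 genes were those well above background on every control array, a filter on 1 group, so the profile and the genes found depend on it. They were Bst1, a surface enzyme of marrow stromal and myeloid cells (r = 0.970), Dclre1c, the Artemis nuclease (0.937), Cdk19, a kinase of the Mediator complex (0.934), Snx10, a sorting nexin (0.934), and Traf3ip3, an adaptor of lymphocytes (0.925). The values are descriptions over 10 rats in 3 groups, whose group means they share, and none of the 5 genes passed the adjusted threshold in any comparison. Bst1, the first of them, ranged from 5.58 to 5.67 in log2 signal over the control rats, from 4.31 to 5.90 over the TBI rats and from 3.73 to 4.91 over the MASM + TBI rats.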

How the data were processed

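RNA from the livers of 3 control, 3 TBI and 4 MASM + TBI rats was labelled with Cy3 and hybridised to Agilent 4 x 44K whole rat genome arrays, 1 per rat. The authors deposited the intensity of each spot from Feature Extraction 10.7.3.1, a linear value from which the software had already taken the background, not normalized across arrays; the deposited table of values held the same intensities. Groups came from the labels. The labels were followed where a heat map of the study names control and TBI arrays differently. Control spots (1639 of 45018 per array) and the 76 to 112 outlier spots per array were left out, intensities were put on the log2 scale and quantile normalized, and spots of a probe were averaged. Symbols came from RefSeq accessions, which named 16968 probes. A 3-group linear model (limma 3.58.1, R 4.3.3, data.table version 1.17.8, prior df 1.43) was fitted to 40945 probes and checked on simulated data; the brightest probe described a gene. Plots used matplotlib 3.10.9 and Python 3.11.15.

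The members and gene lists were chosen with earlier results of these data known. Named genes are the 9 markers, genes called in the B lineage, receptor signalling and plasma cell lists, up to 4 of the brightest genes of each other list (T cell, NK cell, Kupffer cell, neutrophil and monocyte, pan-leukocyte, erythroid, endothelial, hepatocyte, MHC class II) and the 5 genes most like the markers, except where a gene is said to have been named after its values were seen. A few genes of the lists are counted but not reported singly here. Results were recomputed with each array scaled to its 75th percentile, normexp on median pixel intensities (the mean was planned where present), the deposited values, dim probes left out, 2 groups per model, the methods' t-test (run in Welch's form, which the paper does not state), a prior that was trended and robust, the replicate number or the slide as a block, the mean over the probes of a gene, and each rat left out in turn. P-values measure the spread between these rats.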

Additional observations from a re-analysis of the deposited data

Results flagged for a closer look

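Blnk in the MASM + TBI group had 1 rat with a much lower signal, on an array where the probe was not well above background. MASM + TBI rat 3 had a log2 signal of 1.72, and the other 3 rats of the group lay between 3.97 and 4.34. The gap to the nearest rat was 0.857 of the range of the group, above the 95% critical value of Dixon's test for 4 rats, which chance passes in about 1 of 20 groups. The dimmest signal well above background on the array of rat 3 was 4.09, which lies among the other rats, so the distance is not a measured one. That array was the only one of the group on the slide of the control rats.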

How the results depend on the processing

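The count of B cell markers called was 1 for TBI against control, 1 for MASM + TBI against control and 0 between the irradiated groups. It became 0 in both comparisons with control under normexp on median pixel intensities with an offset of 50. That offset shrinks the differences of dim probes by an amount that was not tested. The count was also 0 in both under the methods' t-test, where at the unadjusted threshold of the methods it was again 1 and 1. Leaving out 1 rat at a time gave 1 to 2 calls for TBI against control, 1 to 1 for MASM + TBI against control and 0 to 1 between the irradiated groups; without TBI rat 1 the 2 were Cd22 and Cd79b, and the last 1 was Cd22. Cd79b kept an adjusted p under 0.05 with each rat left out, and its bound ran from at least 3.62-fold to at least 6.03-fold lower for TBI and from at least 1.85-fold to at least 3.09-fold lower for MASM + TBI. Over all settings its adjusted p ranged from 0.000809 to 0.259 for TBI. The medians over the 6 markers, with values below background as they stand, were -0.04, -0.14 and -0.09 under normexp, and -1.79 for MASM + TBI against control with the slide as a fixed block. In that setting, which MASM + TBI rat 3 alone carries, Blnk had -2.79 and Cd79b -2.68, and Cd79b was not called. Neither was well above background in that rat, so these are not measured sizes. The bounds there were at least 1.34-fold lower for Blnk and at least 2.14-fold lower for Cd79b. No marker reversed its direction among called values. The slide as a random block gave Cd22 a log2 difference of 0.55 between TBI and control at an adjusted p of 0.0342, under the 1.5-fold threshold. The correlation fitted within slides was negative (-0.133), and the SE of this difference was 0.14, beside 0.18 in the main fit. TBI shares its slide with no other group, so this setting cannot tell them apart.

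With the replicate number as a block, 0 markers were called in MASM + TBI against control, where Cd79b had -2.95 and an adjusted p of 0.0582, and 1 in TBI against control, where it had -2.90 and an adjusted p of 0.0381. The correlation of the deviations of samples with the same number lay between -0.13 and 0.17 over 9 pairs, with 1 pair over 0.1. Pairs with unlike numbers were not compared and the groups are small, so these values cannot decide whether the number marks a pairing.

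Calls over all probes were 1842, 963 and 570 in the 3 comparisons, and 6950, 791 and 5137 under scaling to the 75th percentile, 599, 488 and 95 under normexp, 943, 978 and 255 with 2 groups per model, 10, 28 and 3 under the methods' t-test, 1026, 298 and 22 with the replicate block and 4078, 1805 and 1401 with the slide as a random block. With the slide as a fixed block, possible for MASM + TBI against control alone, it was 525. Without 1 rat they ran from 914 to 2312, 461 to 1044 and 240 to 1084. The share of calls that were lower moved from 55.4% to 76.8% for TBI against control and from 44.9% to 17.5% between the irradiated groups under scaling to the 75th percentile. Signal over background limits Cr2 throughout, Cd79b and Blnk in the irradiated groups and Blk in all 3 groups.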
